A study of Mus musculus with 26 samples.

Results

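Normal striatum was compared between the 2 groups of control mice of the study, the WT mice that served as controls of the LRRK2 KO mice and the non-TG mice that served as controls of the mice carrying a LRRK2 transgene. The samples were chosen as the control samples behind the deposited WT and non-TG values of striatum, which are 10 of the 26 samples. They comprise 3 non-TG control samples for footprinting, 3 for RNA-Seq, and 2 WT samples for each assay. The labels hold a further WT footprinting sample of striatum, which is not among the 10, and the WT footprinting mean was resolved as that of 2 libraries. The comparison asks which classes of genes differ between cohorts of normal mice that are labelled without a LRRK2 genotype. The mice of both groups were labelled wild-type, of the C57BL/6 strain and 3 months old. Every sample was a pool of the caudate putamen of 3 mice, and the study's methods describe the pools as mixed in sex. The methods also describe doxycycline chow in the breeding cages of the transgenic lines until weaning, and the study calls the non-TG mice littermates. Cohort, this feeding and library preparation go together, so they cannot be told apart in any value given.

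Ribosome footprinting sequences the stretches of mRNA that ribosomes cover, and RNA-Seq of the same tissue measures the mRNA itself. The ratio of both is the translation efficiency (TE) of a transcript. The caudate putamen is made up mostly of spiny projection neurons, with interneurons, oligodendrocytes, astrocytes, microglia and vessels among them, and it lies beside the cortex, the ventricle with its choroid plexus, and the septum. In tissue of this kind, fewer cells of a type and less RNA per cell cannot be told apart.

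The table of the LRRK2 KO mice held 9561 transcripts and that of the G2019S LRRK2 mice 8576, and 8535 were in both. The tables were normalized separately, so differences were centred on the median transcript. Before centring, the median log2 difference, WT minus non-TG control, was -1.53 for footprinting, -1.07 for RNA-Seq and -0.47 for TE. The reads of single libraries were worked out from the group means, which gave 2 libraries per group and assay, called here the deeper and the shallower library. For non-TG controls they came from the table of the G2019S/D1994A LRRK2 mice, while differences of group means use the non-TG column of the G2019S LRRK2 table. Reads in coding sequence (CDS) numbered 15975421 and 9807175 in the non-TG footprinting libraries, and 12366002 and 11973780 in the non-TG RNA-Seq libraries. The WT libraries were less deep, with 5303298 and 3134236 reads for footprinting, and 7603136 and 3212041 for RNA-Seq. Wherever values of libraries are given below, reads were divided by a size factor of the library unless called unscaled, and the deeper library comes first.

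The libraries of a group were unlike each other to different degrees. Between the non-TG footprinting libraries the log2 ratio had an SD of 0.301 across 8460 transcripts, against 0.694 between the WT footprinting libraries. The WT shallower footprinting library was the one that stood apart, with an SD of 0.650 and 0.694 against the non-TG libraries, where the WT deeper library had 0.437 and 0.359. The word precursor in a description marks only some of the proteins made with a signal or transit peptide. Of 14 listed chaperones of the endoplasmic reticulum, 5 are so described. Transcripts described as precursors numbered 405 in the joined table. Their median was -1.03 in the WT shallower library and 0.04 in the WT deeper library, on a log2 scale relative to the non-TG libraries, while the other transcripts had 0.03 and -0.01. The LRRK2 KO libraries of the same table had this split too, with a precursor median of -1.07 in the shallower library and 0.09 in the deeper one. In the RNA-Seq, the non-TG libraries stood apart from each other, with an SD of 1.40 and 48.1% of transcripts past a log2 ratio of 1. Between the WT RNA-Seq libraries the SD was 0.628. The non-TG RNA-Seq mean of the table that gave these libraries therefore averages libraries that differ more from each other than the cohorts did. The libraries behind the other non-TG mean, used for differences of group means, could not be worked out.

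The tissue was checked against markers of spiny projection neurons. Of 18 listed symbols 17 were in the joined table, and the other one, Drd1, is the newer name of Drd1a, which was present. Per length of coding sequence the most abundant was Ppp1r1b, which encodes the dopamine-regulated phosphatase inhibitor of these neurons. It had 18108 and 25585 footprint reads in the non-TG libraries and 18204 and 15958 in the WT libraries. The list summed to 69813 and 83836 footprint reads in the non-TG libraries and 67699 and 56024 in the WT libraries, and to 60481 and 98570.1 against 72128 and 76671 in RNA-Seq. Markers of the tissue named in the labels were thus abundant in every library. The median centred difference was -0.30 for footprinting and -0.18 for RNA-Seq. In footprinting 16 of 17 members were below 0, and 1 was lower by at least 1, where 0.926% of all transcripts were. It was Pdyn, the precursor of the dynorphin peptides, at -1.15, from 1207 and 1210.2 reads in non-TG and 897 and 220.1 in WT. Library medians for footprinting were -0.13 and 0.13 in non-TG and -0.21 and -1.04 in WT, and the list's median was -0.13 without the WT shallower library, -1.05 without the WT deeper one and -0.56 without the non-TG deeper one. In RNA-Seq its sign depended on the libraries, with 0.50 without the non-TG shallower library and -0.49 without the non-TG deeper one. Bcl11b, a transcription factor of these neurons, had 1481 and 2253 RNA-Seq reads in non-TG and 4318 and 3839.6 in WT. At 1.14 it was the 1 of 17 higher by at least 1 in RNA-Seq, where 3.75% of all transcripts were.

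Across the 8535 transcripts the centred differences had an SD of 0.368 for footprinting, 0.511 for RNA-Seq and 0.488 for TE. In footprinting 69 transcripts were higher in WT by at least 1 on the log2 scale and 79 were lower. For RNA-Seq the counts were 320 and 164, and for TE 114 and 288. These counts depended on single libraries. Where a non-TG library is left out of these differences, here and below, the one that remains comes from the other table. The non-TG column then changes as well. That column with both libraries kept gave 102 higher and 91 lower in footprinting, 319 and 311 in RNA-Seq, and 234 and 278 in TE. Without the WT deeper footprinting library 157 were higher and 1034 lower, without the WT shallower library 63 and 30, without the non-TG deeper library 133 and 94, and without the non-TG shallower library 93 and 116. RNA-Seq gave 1352 higher and 129 lower without the non-TG deeper library, and 1591 and 1073 without the non-TG shallower library. It gave 533 and 461 without the WT shallower RNA-Seq library, and without the WT deeper one 366 and 222. Leaving out each of the 8 libraries in turn gave between 30 and 1055 transcripts with higher TE and between 330 and 1641 with lower TE. Differences in footprinting and in RNA-Seq had a Spearman's rho of 0.407 across transcripts, and TE differences had a rho of -0.695 with those in RNA-Seq and 0.295 with those in footprinting. TE shares its values with both. The points are genes of the same libraries, which are not replicates, and carry no p.

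The test over libraries was limma, with 2 libraries in each group. At an adjusted p under 0.05 it called 0 transcripts for footprinting, 0 for RNA-Seq and 0 for TE, with smallest adjusted p-values of 0.589, 0.999 and 0.999. At an unadjusted p under 0.05 there were 277 higher and 167 lower of 8460 in footprinting, 53 and 25 of 8491 in RNA-Seq, and 8 and 29 of 8439 for TE. The median standard error was 0.246 for footprinting, 0.632 for RNA-Seq and 0.646 for TE. Calls changed with the libraries kept. With the WT shallower footprinting library left out, 117 transcripts were called higher in WT and 35 lower. Without the WT deeper library the counts were 1121 and 1759, and without either of the non-TG libraries 0 and 0. In RNA-Seq there were 419 and 4 without the non-TG deeper library, 360 and 91 without the non-TG shallower library, 0 and 1 without the WT shallower library, and 0 and 0 without the WT deeper one. For TE, 51 higher and 193 lower came without the non-TG shallower RNA-Seq library. In each of these fits the lone library of a group is assumed to vary like the others.

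**Figure D1:**
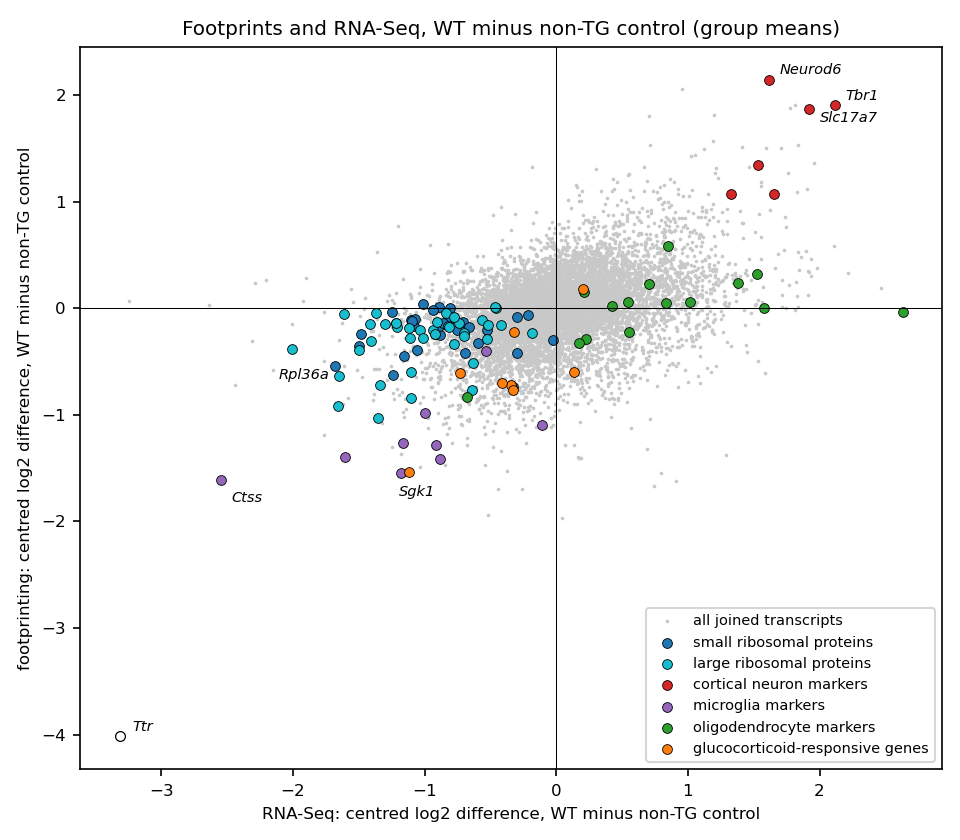
Centred log2 difference, WT minus non-TG control, in RNA-Seq (x axis) and footprinting (y axis), 1 point per transcript of the 8535 in both tables, with members of gene lists coloured. Markers of cortical neurons lie at upper right, ribosomal protein transcripts to the left near 0 in footprinting, and Ttr at lower left at -3.32 and -4.01.

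Markers of cortical projection neurons were higher in WT in both assays. Of 12 listed symbols 6 were in the joined table. Emx1 and Lamp5 were in neither table, and Neurod2, Fezf2 and Rorb were among those only in the table of the LRRK2 KO mice. All 6 members were higher by at least 1 in footprinting, where 0.808% of all transcripts were, and 6 of 6 in RNA-Seq, where 3.75% were. Medians were 1.61 for footprinting, 1.63 for RNA-Seq and -0.19 for TE, against 0 over all transcripts. Summed footprint reads were 2642 and 2343 in the non-TG libraries and 9439.7 and 6929.9 in the WT libraries. In RNA-Seq the sums were 1655 and 1858 against 4655 and 9093. Both WT libraries lay above both non-TG libraries for 5 of 6 members in footprinting, where 19.0% of all transcripts did, and for 5 in RNA-Seq, where 9.42% did. The LRRK2 KO libraries, which share a table with the WT ones, had medians of 1.96 and 1.54 in footprinting and 1.44 and 1.73 in RNA-Seq on the same scale. Leaving out single libraries gave footprinting medians from 1.14 without the WT deeper library to 2.36 without the non-TG deeper one, and 1.34 to 2.18 in RNA-Seq. The TE median ranged from -0.68 to 0.57, so its sign depended on single libraries. With the other non-TG column and no library left out the footprinting and RNA-Seq medians were 1.97 and 1.87. The part of cortical tissue in the result was not tested.

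Slc17a7 (uc009gtx.2, chromosome 7, 52419291 to 52431508 on the plus strand) encodes the vesicular glutamate transporter of cortical neurons. It had 514 and 349.6 footprint reads in the non-TG libraries and 3370.1 and 1403 in the WT libraries, and 325 and 1009 against 2481 and 4560.2 RNA-Seq reads. Its centred differences were 1.87 and 1.92, the highest footprinting difference among the 1784 transcripts whose group means all reach 500. With the non-TG column of the table that the reads come from, they were 2.47 and 2.40. In footprinting Slc17a7 was at 1.10 without the WT deeper library, and in RNA-Seq at 3.41 without the non-TG shallower one. The cortical transcription factor gene Tbr1 had 254 and 150.4 footprint reads in non-TG and 1203 and 1183 in WT, and 114 and 93.1 against 319 and 862 in RNA-Seq, with differences of 1.90 and 2.12. Neurod6, for another transcription factor of these neurons, had 74.9 and 48.8 footprint reads against 297 and 440.1, and 104 and 37.0 against 222 and 292 RNA-Seq reads. At 2.14 it had the highest footprinting difference of all 8535 transcripts. Cux2, of upper cortical layers, had 84.0 and 97.0 footprint reads against 324 and 158, with differences of 1.34 and 1.53. Mef2c, the most abundant member per length and also active in other neurons, had 1277 and 1452 against 2771 and 3326, with differences of 1.07 and 1.33. The secreted pentraxin gene Nptx1 had 438 and 245 footprint reads in non-TG and 1474 and 420.1 in WT, so its WT shallower library lay below the non-TG deeper library, and its difference was 1.07. The limma fit without the WT shallower footprinting library has 1 WT library, so the spread within WT does not enter it. Its estimate was 2.98 for Slc17a7, 2.58 for Tbr1 and 2.17 for Neurod6, and the median over the 6 members was 2.16.

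Further abundant transcripts were higher in WT in footprinting. Vsnl1, for a calcium sensor of neurons, had 1930.3 and 1834 footprint reads in the non-TG libraries and 4926 and 5952 in the WT libraries, and differences of 1.36 and 1.96 in footprinting and RNA-Seq. Mical2, whose product oxidizes actin, had 591 and 631 footprint reads against 2004 and 2031, and differences of 1.57 and 1.19. Pgm2l1, for an enzyme that makes glucose 1,6-bisphosphate in brain, was at 1.51 in footprinting from 939.8 and 702 reads in non-TG and 1772 and 3249 in WT. Plec, for a large linker of the cytoskeleton, had 441 and 458 footprint reads in non-TG and 901 and 1335 in WT. It was at 1.33 in footprinting and -0.18 in RNA-Seq, which gave a TE difference of 1.53. Leaving out single libraries gave TE differences of 0.86 to 1.85 for Plec. Proteins of synaptic vesicles differed less. Of 19 listed, 17 were in the table, with medians of 0.23 and 0.40. In either assay 0 were past 1, where 0.808% of all transcripts were higher by that much in footprinting and 3.75% in RNA-Seq. The footprinting median was 0.12 without the WT deeper library and 0.41 without the WT shallower one. The RNA-Seq median was -0.09 without the WT shallower RNA-Seq library. Their most abundant member per length was Snap25. Syn1, which tethers vesicles, had 5028 and 4731 footprint reads against 8794 and 8210.3 and a difference of 0.71. When the WT shallower footprinting library was left out, which leaves 1 WT library, the limma estimates of 15 fitted vesicle proteins had a median of 0.45. Among these Syp was at 0.94, Syn1 at 0.86 and Sv2b at 0.84.

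Ribosomal proteins were lower in WT in RNA-Seq, and in footprinting by less. For the 32 transcripts of the small subunit the median difference was -0.89 in RNA-Seq, -0.17 in footprinting and 0.72 in TE. The 40 of the large subunit had -0.98, -0.21 and 0.71. All 32 and all 40 were below 0 in RNA-Seq, and 29 and 38 in footprinting. At least 1 lower in RNA-Seq were 12 of the small subunit and 20 of the large one, where 1.92% of all transcripts were. TE was higher by at least 1 for 6 and 11 of them, where 1.34% of all transcripts were, and Rpl17, at -1.03, was the 1 member past -1 in footprinting. Both WT libraries lay below both non-TG libraries in RNA-Seq for 21 of the 32 and for 29 of 37 with library values, where 13.5% of all transcripts did. In footprinting they did so for 15 of 32 and 23 of 40, where 18.8% of all transcripts did. The unlike non-TG RNA-Seq libraries had medians near each other here, -0.07 and 0.07 for the small subunit and 0.05 and -0.05 for the large one, against -0.99 and -0.70 and -1.21 and -0.87 in the WT libraries. The LRRK2 KO libraries had -0.98 and -0.19 for the small subunit and -1.19 and -0.38 for the large one, so the shallower was nearer to the non-TG libraries. Leaving out single libraries gave RNA-Seq medians of -0.97 to -0.83 and -1.18 to -0.79. At an unadjusted p under 0.05 limma had 3 of 32 members of the small subunit and 8 of 37 of the large one in RNA-Seq. Over all 8491 transcripts fitted, 78 passed that threshold. At an adjusted p under 0.05 limma called 0 members.

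Members differed widely in this. Rpl5, which binds 5S rRNA, had 13304 and 3476 RNA-Seq reads in the non-TG libraries and 2299 and 2033 in the WT libraries, a centred difference of -1.62, which was -0.65 without the non-TG deeper library and -2.64 without the shallower one. Its footprint reads were 1732 and 1870.2 against 1410.5 and 1916. Rps24, of the small subunit, had 11153 and 4188 RNA-Seq reads against 2239 and 2235, a difference of -1.48, and 1853 and 1251 footprint reads against 1171 and 1225. Without the same libraries its RNA-Seq difference was -0.87 and -2.34. For both genes the non-TG shallower library held the lower non-TG value in RNA-Seq. The lowest was Rpl36a at -2.01 (6296 and 1991 reads against 834 and 862). The most abundant members per length were Rps29 and Rpl38. Elongation factors, which also act on the ribosome, had medians of -0.57 in RNA-Seq and 0.02 in footprinting over 7 transcripts, and TE was above 0 for 7 of 7. Without the non-TG shallower RNA-Seq library their RNA-Seq median was -0.96, and without the non-TG deeper one -0.75. Library values in RNA-Seq were available for 4 of these 7 factors, so these medians cover fewer members. Eef1b2, which recharges the elongation factor that brings transfer RNA, was their lowest in RNA-Seq at -1.49, from 7664 and 2649 reads in non-TG and 1692 and 1345 in WT, and at -0.77 without the non-TG deeper library and -2.36 without the shallower one. Initiation factors, by contrast, had medians of -0.13 and 0.01 over 48 transcripts. Of these, 0 were past -1 in either assay, where 1.92% of all transcripts were in RNA-Seq and 0.926% in footprinting.

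Other classes of housekeeping transcripts had medians below 0 in RNA-Seq and of smaller size, not all of them steady. The 63 mitochondrial ribosomal proteins had medians of -0.31 in RNA-Seq and -0.11 in footprinting, with 48 of 63 below 0 in RNA-Seq. For the 39 subunits of respiratory complex I the medians were -0.30 and -0.09, and Ndufa5 had the lowest RNA-Seq difference at -1.36. Complex I was at -0.18 in RNA-Seq without the WT deeper RNA-Seq library and at -0.46 without the WT shallower one. The 35 subunits of complexes III to V had -0.23 and -0.11. In RNA-Seq they were at 0.03 without the non-TG shallower library, -0.07 without the WT deeper one and -0.43 without the WT shallower one. Among them Uqcrb, a subunit of complex III, had 4751 and 965 RNA-Seq reads in non-TG and 561 and 909.5 in WT, and at -1.65 it was the lowest RNA-Seq difference among transcripts with means of at least 500. It was -0.36 without the non-TG deeper library and -2.72 without the non-TG shallower one. Proteasome subunits had medians of -0.22 and -0.01 over 30, the former -0.02 without the WT deeper RNA-Seq library and -0.46 without the non-TG shallower one. Length of CDS varied with the differences over all transcripts. Its rho with the difference was 0.257 in footprinting and 0.205 in RNA-Seq across 8381 transcripts. The CDS was the longest of the gene, matched by symbol. For the GC content of the CDS these values were 0.0135 and -0.0562. Between libraries of a group, however, GC content had a rho with their ratio of 0.780 for the non-TG RNA-Seq pair. It was -0.542 for the WT footprinting pair, 0.436 for the non-TG footprinting pair and 0.0245 for the WT RNA-Seq pair. In 5 classes of equal size, from the shortest CDS to the longest, the median differences were -0.10, -0.03, -0.01, 0.05 and 0.14 in footprinting, and -0.10, -0.06, -0.02, 0.01 and 0.18 in RNA-Seq. The ribosomal lists, with median CDS lengths of 458 and 498 bases, were below the median of that shortest class in RNA-Seq. The predicted folding energy of the 5′UTR had a rho of 0.0872 with TE differences and -0.129 with RNA-Seq differences.

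**Figure D2:**
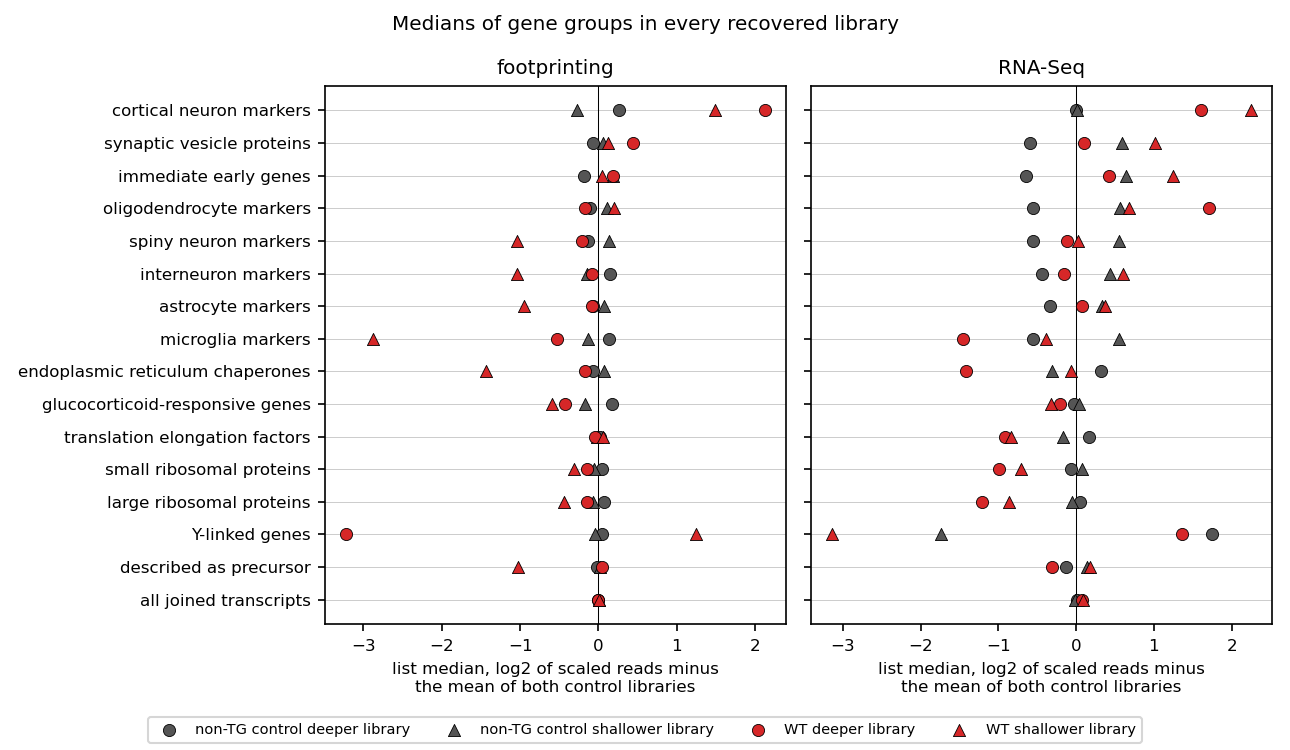
Median of each gene list in each library, as log2 scaled reads relative to the mean of both non-TG control libraries, for footprinting and RNA-Seq, 1 point per library. Cortical markers are above 0 in both WT libraries, and microglia markers are at -0.52 and -2.88 in the WT footprinting libraries.

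Oligodendrocyte markers had a median above 0 in RNA-Seq and one near 0 in footprinting. Of 16 listed, 15 were in the table, and the other one, Myrf, is the newer name of Gm98, which was present. The medians were 0.05 in footprinting, 0.71 in RNA-Seq and -0.50 in TE, with TE below 0 for 15 of 15. In RNA-Seq 5 were higher by at least 1, where 3.75% of all transcripts were, and TE was lower by at least 1 for 4, where 3.37% were. The list summed to 39491 and 46958 footprint reads in the non-TG libraries and 38896 and 50452 in the WT libraries. In RNA-Seq it summed to 16420.4 and 33683 against 63059 and 35544, so the non-TG shallower and the WT shallower library were near each other. Library medians in RNA-Seq were -0.56 and 0.56 in non-TG and 1.71 and 0.68 in WT. The RNA-Seq median was 0.06 without the WT deeper library, 1.18 without the WT shallower one, 1.12 without the non-TG shallower one and 0.45 without the non-TG deeper one. The TE median was -0.06 without the WT deeper RNA-Seq library and -1.32 without the non-TG shallower one. Trf, for the iron carrier transferrin, was opposite to most of the list, at -0.83 in footprinting, from 3808 and 3543 against 2892 and 1250.4 reads, and -0.67 in RNA-Seq. The part of oligodendrocyte number in the result was not tested.

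Further abundant transcripts stood at the ends of the RNA-Seq and TE differences. Marcks, for a substrate of protein kinase C, had 89.3 and 516 RNA-Seq reads in non-TG and 641 and 1965 in WT, a difference of 1.98, and its TE difference was -1.59. Without the WT shallower RNA-Seq library these were 0.98 and -0.62, and without the non-TG shallower one 3.84 and -3.45. Slc1a2, the glutamate transporter of astrocytes, had 2666 and 703 RNA-Seq reads against 2351 and 4978 and 7412 and 6946 footprint reads against 7175 and 2711, which gave 1.21, -0.54 and a TE difference of -1.74. That TE difference was -0.97 without the non-TG shallower RNA-Seq library and -2.94 without the deeper one. Gpm6b, for a membrane proteolipid, had a TE difference of -1.69, and Cadm2, a cell adhesion molecule, had -1.60, or -0.64 without the WT shallower RNA-Seq library. Spna2, for a spectrin chain of the membrane skeleton, was at the other end with 1.37, or 0.60 without the non-TG deeper RNA-Seq library. Strbp, for an RNA-binding protein, had the highest TE difference of the abundant transcripts, 1.99, and rested on 1 library. Its non-TG RNA-Seq libraries held 4663 and 248 reads, and without the deeper of them the difference was -1.11.

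Microglia markers were lower in WT. Of 14 listed, 9 were in the table. Aif1, Trem2, Tyrobp and Laptm5 were in neither table, and P2ry12 was only in that of the LRRK2 KO mice. In footprinting 7 of 9 were lower by at least 1, where 0.926% of all transcripts were, and in RNA-Seq 4, where 1.92% were. The medians were -1.28, -0.99 and, for TE, -0.08. Their size, and for TE the sign, depended on single libraries. The TE median was -2.31 without the WT deeper footprinting library and 0.54 without the WT shallower RNA-Seq library. Library medians in footprinting were 0.13 and -0.13 in non-TG and -0.52 and -2.88 in WT, and the list summed to 3972 and 2950.2 against 2241 and 488 reads. Without the WT shallower footprinting library the median was -0.57, and without the WT deeper one -3.25. In RNA-Seq the sums were 3921 and 3831 against 1104 and 2259.9, and the median was -0.02 without the non-TG shallower library and -1.78 without the WT shallower one. Of the 9 members 6 are described as precursors, with a median of -2.96 in the WT shallower footprinting library, and the 3 others had -2.86. The LRRK2 KO libraries had list medians of -0.33 and -2.93 in footprinting and -1.29 and 0.23 in RNA-Seq. Csf1r, the receptor that maintains microglia, had 646 and 534 footprint reads in non-TG and 397 and 65.0 in WT. C1qa, of the complement system, had 321 and 220.0 against 182 and 27.5. The part of microglia number in the result was not tested.

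Astrocyte, interneuron and chaperone lists were also low in the WT shallower footprinting library. In the LRRK2 KO shallower library they were at -1.23, -0.83 and -1.42. All 15 astrocyte markers were in the table, with medians of -0.52 in footprinting and 0.05 in RNA-Seq, and Glul, for glutamine synthetase, was the most abundant per length. Their summed footprint reads were 29396 and 32686 in non-TG and 29269 and 15013 in WT, and their RNA-Seq reads 15979 and 24752 against 20072 and 27094. Library medians in footprinting were -0.07 and 0.07 against -0.08 and -0.95, and the list was at -0.13 without the WT shallower library and -1.13 without the WT deeper one. In RNA-Seq it was at 0.63 without the non-TG shallower library. The 10 listed interneuron markers, all present, had medians of -0.41 and 0.19, the latter -0.34 without the WT shallower RNA-Seq library, -0.10 without the non-TG deeper one and 0.42 without the non-TG shallower one. They summed to 6159 and 4909.6 footprint reads against 5278 and 3469, and to 2618 and 4349 against 2857 and 4933 in RNA-Seq, with Sst, for somatostatin, the most abundant per length. Slc5a7, the choline transporter of cholinergic interneurons, had 454 and 364 footprint reads in non-TG and 244 and 70.0 in WT, a difference of -1.32. The interneuron median without the WT shallower library was -0.08, and without the WT deeper one -1.11. Chaperones of the endoplasmic reticulum, through which secreted proteins pass, were below 0 in footprinting for 14 of 14, with a median of -0.68, and it was -0.16 without the WT shallower library and -1.46 without the WT deeper one. Hspa5, the main chaperone of this compartment, had 3447 and 3810.1 footprint reads in non-TG and 2973 and 1003 in WT. In RNA-Seq the chaperones had a median of -0.57, from 0.32 and -0.32 in the non-TG libraries and -1.41 and -0.07 in the WT libraries, and it was -0.02 without the WT deeper library. Cst3, for the secreted protease inhibitor cystatin C, was the most abundant precursor per length and had the lowest footprinting difference of transcripts with means of at least 500, -1.12, with 7514 and 2063 footprint reads in WT, while its reads in the single non-TG libraries could not be worked out. Without the WT shallower library Cst3 was at -0.45, and without the WT deeper one at -2.34. The part of these cell types in the result was not tested.

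Genes that glucocorticoids induce had medians below 0 in both assays. Of 12 listed, 8 were in the table. Pdk4 and Cdkn1a were only in the table of the LRRK2 KO mice, and Sult1a1 and Plin4 were in neither table. Medians were -0.65 in footprinting and -0.34 in RNA-Seq. In footprinting 7 of 8 had both WT libraries below both non-TG libraries, where 18.8% of all transcripts did. Library medians were 0.17 and -0.17 in non-TG and -0.42 and -0.59 in WT, and leaving out single libraries gave -0.75 to -0.44. Only Sgk1 was lower by at least 1, in both assays, where 0.926% of all transcripts were in footprinting and 1.92% in RNA-Seq. Sgk1, a kinase gene that stress hormones switch on, had 3059.7 and 1963 footprint reads in non-TG and 613 and 1038 in WT, and 2521 and 1749.6 against 1005 and 784 RNA-Seq reads. The differences were -1.54 and -1.12. Its limma estimate without the WT shallower footprinting library, with 1 WT library left, was -1.98. Fkbp5, which binds the receptor of these hormones, had 419 and 426 footprint reads against 268 and 315, a difference of -0.61. The most abundant per length was Mt2, a metallothionein, at -0.72 from 1413 and 1342 against 1147 and 520.2. Zbtb16, a transcription factor gene of the list, was the exception, with 59.7 and 39.7 against 107 and 138. Its difference was 0.18 with the non-TG column of the G2019S LRRK2 table and 1.16 in the limma fit over the libraries printed here.

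Immediate early genes, which neurons switch on with activity, differed in either direction. Of 16 listed, 14 were in the table, and Ier2 and Btg2 were absent. The medians were 0.17 in footprinting and 0.38 in RNA-Seq. The footprinting median was 0.02 without the WT deeper library and 0.34 without the non-TG shallower one. The RNA-Seq median was -0.03 without the non-TG deeper RNA-Seq library and 1.68 without the non-TG shallower one. In footprinting 0 of 14 were past 1, where 0.808% of all transcripts were higher by that much. Arc, which acts at synapses, had 796 and 1299 footprint reads in the non-TG libraries and 2362 and 1911 in the WT libraries, a difference of 0.94. Npas4 had 109 and 110.0 against 235 and 250.1, a difference of 0.96. Fos, the gene commonly used to mark active neurons, had 263 and 286 against 592 and 430.1, a difference of 0.80. Without the WT shallower footprinting library, which leaves 1 WT library, the limma estimates were 1.22 for Arc, 1.06 for Npas4 and 1.10 for Fos. The median estimate over the 14 was 0.20. Fosb, related to Fos, was opposite, with 253 and 208 footprint reads in non-TG and 139 and 90.0 in WT and a difference of -0.94. Fosl2, also of this family, was at -0.80. Egr1, the most abundant member per length, was at 0.06, from 4652 and 7178 against 5812 and 5847. Their RNA-Seq medians were -0.64 and 0.64 in the non-TG libraries and 0.42 and 1.25 in the WT libraries, so the spread between non-TG libraries was at least as wide as the difference.

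**Figure D3:**
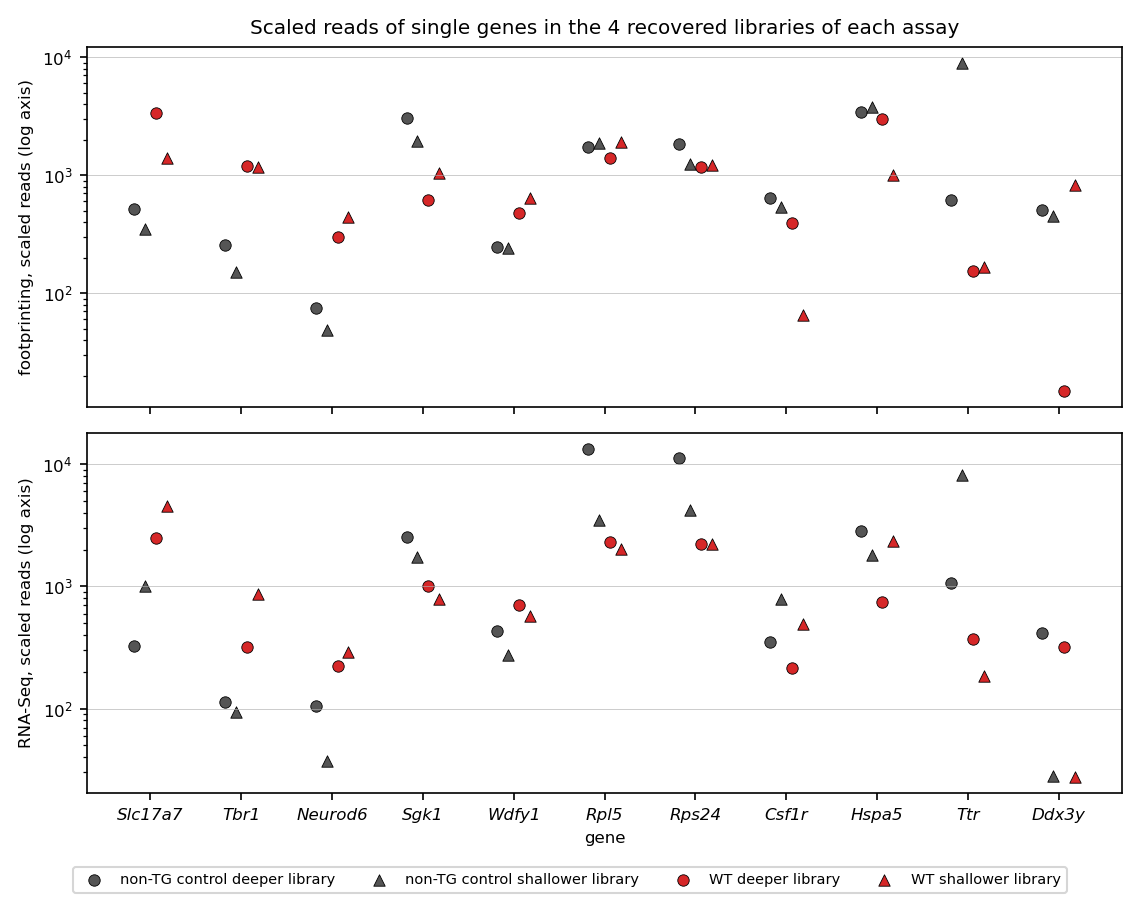
Scaled reads (log axis) of 11 named genes in each recovered library of both cohorts, footprinting and RNA-Seq, 1 point per library. Sgk1 is lower and Slc17a7 higher in both WT libraries, while Ttr and Ddx3y differ between libraries of the same cohort.

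Ttr (uc008eet.2, chromosome 18, 20823751 to 20832825 on the plus strand), for the thyroid hormone carrier that the choroid plexus secretes, had the lowest difference of all 8535 transcripts in both assays, -4.01 in footprinting and -3.32 in RNA-Seq. It had 617 and 8864 footprint reads in the non-TG libraries and 154 and 165 in the WT libraries, and 1075 and 8106 against 368 and 186 in RNA-Seq, so most of it came from 1 non-TG library in each assay. The list of choroid plexus and meninges had 4 of 15 members in the table, with medians of -0.74 and -0.54, and the most abundant per length was Ptgds. Defining genes such as Kl, Folr1, Kcnj13 and Otx2 were not in the table. The members summed to 4554 and 15414 footprint reads against 4467 and 1768, and to 3626 and 12616 against 2657 and 3910.2 in RNA-Seq. The footprinting median was -0.42 without the non-TG shallower library and -1.70 without the WT deeper one, and the RNA-Seq median -1.22 without the WT shallower RNA-Seq library. Thalamic and septal markers, another list of neighbouring tissue, had 4 of 8 members, medians of -0.34 and -0.11, and sums of 636 and 559 footprint reads in non-TG against 656 and 498 in WT, and of 541 and 335 RNA-Seq reads against 471 and 524. The footprinting median was -0.06 without the WT shallower library and -0.62 without the WT deeper one, and the RNA-Seq median 0.08 without the WT deeper RNA-Seq library. Their most abundant member per length was Rora, and Slc17a6, Lhx9 and Ramp3 were not in the table. Of 15 endothelial and mural markers only Slc2a1, the glucose transporter of vessels, was in the table, with 274 and 352 footprint reads in non-TG, 380.4 and 138 in WT, and differences of -0.36 and -0.34. Both signs depended on single libraries, with 0.21 in footprinting without the WT shallower library and -1.27 without the WT deeper one, and 1.05 in RNA-Seq without the non-TG shallower library. The part of neighbouring tissue in the result was not tested.

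Genes known to differ between C57BL/6 substrains were examined because the labels name no substrain. Of 10 listed, 8 were in the table, with medians of 0.27 in footprinting and 0.18 in RNA-Seq. These were 0.06 in footprinting without the WT shallower library, and -0.08 in RNA-Seq without the non-TG shallower library. Wdfy1, for an endosomal protein, had 246 and 243 footprint reads in non-TG and 478 and 638 in WT, and differences of 0.69 and 0.75. Without the WT shallower footprinting library limma called it higher, at 0.95 (adjusted p 0.0302), where 1.38% of transcripts were called. Alad, for an enzyme of heme synthesis, had 722 and 761 against 423 and 318 and a footprinting difference of -0.81. Entpd4, of the Golgi, was at -0.67 and -0.96. Nnt, in which a deletion marks one of the substrains, had 298 and 246 footprint reads against 330.0 and 365, a difference of 0.34. These reads are counted over the whole CDS, so they do not show whether a part of it is deleted. Gabra2, a GABA receptor subunit, had 353.8 and 127.6 RNA-Seq reads in non-TG and 353 and 748 in WT. At -0.49 in footprinting and 1.53 in RNA-Seq, it was the 1 member higher by at least 1 in RNA-Seq, where 3.75% of all transcripts were. Whether the cohorts differ in substrain was not tested.

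Reads of the Y chromosome differed between libraries of the same group. Of 5 listed genes 3 were in the table, and Eif2s3y and Usp9y were absent. Ddx3y, for an RNA helicase, had 508 and 447 footprint reads in the non-TG libraries and 14.8 and 830.3 in the WT libraries, and 419 and 28.3 against 320.3 and 27.7 in RNA-Seq. Medians over the 3 were 0.05 and -0.05 against -3.22 and 1.24 in footprinting, and 1.74 and -1.74 against 1.36 and -3.14 in RNA-Seq. The centred differences of group means, 0.34 and 0.18, hide this. Libraries with few such reads were therefore found in both assays of WT and in the RNA-Seq of non-TG controls, although the methods describe pools of mixed sex. The sex of the mice in each pool was not tested. The WT footprinting library that remains when the shallower one is left out is the one with few such reads. The limma estimate for Ddx3y was then -4.45.

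Lrrk2 (uc007xhz.1, chromosome 15, 91503606 to 91646551 on the plus strand), which the labels give as unaltered in both groups, was higher in one deposited non-TG column than in the other. The tables of both transgenic lines hold a non-TG mean, and for most transcripts these were near each other, with a centred SD of 0.0747 for footprinting across 8535 transcripts. For Lrrk2 the footprinting means were 2524 in the table of the G2019S LRRK2 mice and 1335 in that of the G2019S/D1994A LRRK2 mice, a centred log2 difference of 1.26, the highest of all. Zbtb16 followed with 1.11, and Tbr1 with 0.66. At the other end Ttr had -0.87. In RNA-Seq Lrrk2 differed by -0.33 between these columns. Its single libraries held 747 and 636 footprint reads in non-TG, from the second of these tables, and 761 and 1295 in WT. WT minus non-TG control for Lrrk2 was thus -0.68 in footprinting and -0.67 in TE with the first column, and 0.58 and 0.95 with the second, so its direction depended on the column. Non-TG group means are from the first column unless said otherwise, and whether each sample behind it is non-transgenic was not tested.

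The test behind the calls was limma with 2 libraries against 2, in which a difference must exceed the spread between unlike libraries of a group. Differences of group means carry no test, and the pooling of mice leaves the spread between animals unmeasured.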

How the data were processed

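Ribosome footprinting and RNA-Seq of striatum were available as 3 tables, 1 per genotype comparison. The authors aligned reads to mm9 with TopHat2 2.0.11 and Bowtie2 2.2.2 after base calling with CASAVA 1.8, counted reads in coding sequence, discarded transcripts with few reads, and normalized each table separately with DESeq 1.20. For each assay, the authors deposited the mean of the libraries of a group, in normalized signal. The authors also deposited TE as a log2 ratio of footprinting to RNA-Seq, and, in kcal/mol, a predicted folding energy for the 5′UTR (lowest over isoforms). The deposited columns that compare genotypes, which hold a TE difference and its z-score, were not used.

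Transcripts were joined on identifier between the table of the LRRK2 KO mice (WT means) and that of the G2019S LRRK2 mice (non-TG means). The log2 difference, WT minus non-TG control, had a pseudocount of 0 and was centred on its median, for each assay and for TE. All 8535 transcripts were kept, and those past a centred difference of 1 were counted. Reads of single libraries were recovered from a group mean as whole multiples of 2 step sizes. This worked for 10 of 12 columns and not for both non-TG columns of the G2019S LRRK2 table, so the non-TG libraries are those of the G2019S/D1994A LRRK2 table. The labels list 3 non-TG samples per assay. Library values are reads divided by a median-of-ratios size factor over the 4 libraries of an assay, and log2 values add 10 and subtract the mean of both non-TG libraries. limma (trend, empirical Bayes, Benjamini-Hochberg adjustment) was fitted for each assay, and with an interaction of cohort and assay for TE, at an adjusted p under 0.05. CDS length came from the annotation of the same build, matched by identifier for 98.2% of transcripts.

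Named genes are the 5 highest and 5 lowest differences of footprinting, RNA-Seq and TE among transcripts whose 4 group means all reach 500, and, of the lists, the most abundant member, the members of highest and lowest difference, and any member of lists of up to 20. Members and 32 lists of genes were chosen with earlier results of these data known. Alternatives were other pseudocounts, minimum values, centring, control columns, folds, 1 transcript per symbol, a correction for CDS composition, other limma settings and leaving out each library. Python 3.11.15 with numpy 2.4.6, pandas 2.3.3, scipy 1.17.1 and matplotlib 3.10.9, and R 4.3.3 with limma 3.58.1 were used.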

Additional observations from a re-analysis of the deposited data

How the results depend on the processing

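Outside footprinting and RNA-Seq of the 6 lists described at most length, 1219 of 1379 list medians under alternatives stayed within the spread between libraries. TE medians of those 6 lists are among the 1379, and 176 of the 1379 differed in sign from the main value. For the values below, the cause was not tested.

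With a pseudocount of 50, footprinting had 32 transcripts higher and 43 lower, RNA-Seq 189 higher, and the footprinting medians of small and large ribosomal proteins were -0.31 and -0.39. A minimum on all 4 group means left 31 higher and 13 lower in footprinting, 126 and 78 in RNA-Seq and 44 and 118 in TE, and cortical markers at 1.00 in footprinting. A stricter minimum left 19 and 10, 63 and 41, and 21 and 55. Fewer transcripts enter under both.

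Without centring, the scales of the tables enter the differences. Counts were then 0 higher and 8122 lower in footprinting, 5 and 4764 in RNA-Seq, and 21 and 1228 in TE. Medians in footprinting and RNA-Seq were -1.70 and -1.96 for small ribosomal proteins, -1.74 and -2.05 for large ones, -1.83 and -1.25 for spiny neuron markers, 0.075 and 0.56 for cortical markers, -2.81 and -2.07 for microglia markers, and -1.48 and -0.37 for oligodendrocyte markers, whose RNA-Seq median thus changed sign. So did the footprinting differences of Pgm2l1 (-0.019), Vsnl1 (-0.17) and Plec (-0.20). Leaving out centring moves all transcripts of an assay by the same amount, so these changes of sign say nothing about these genes or lists.

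The non-TG column of the G2019S/D1994A LRRK2 table gave 311 transcripts lower in RNA-Seq, 234 higher in TE, and Lrrk2 at 0.58 in footprinting and 0.95 in TE. A log2 difference of 0.58 as the threshold gave 326 higher and 553 lower in footprinting, 1083 and 790 in RNA-Seq and 688 and 1057 in TE. A log2 difference of 2 gave 2 and 1, 5 and 11, and 7 and 8. Geometric means of the recovered libraries, an alternative chosen after seeing the data, gave 130 lower in footprinting, 492 higher and 260 lower in RNA-Seq, 178 and 484 in TE, and Lrrk2 at 0.54 in footprinting and 0.33 in TE. Leaving out transcripts described as precursors was also chosen after seeing the data. With the genotype libraries added, limma called 2 transcripts higher in footprinting.

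Each library was also left out in turn, and a non-TG library left out also means the other non-TG column. Transcripts higher ranged from 63 to 157 and lower from 30 to 1034 in footprinting, from 366 to 1591 and 129 to 1073 in RNA-Seq, and from 30 to 1055 and 330 to 1641 in TE. limma calls ranged from 0 to 1121 higher and 0 to 1759 lower in footprinting, 0 to 419 and 0 to 91 in RNA-Seq, and 0 to 51 and 0 to 193 in TE. Footprinting medians ranged from -0.27 to -0.066 for small ribosomal proteins, -0.39 to -0.10 for large ones, -1.05 to -0.13 for spiny neuron, 1.14 to 2.36 for cortical, -0.22 to 0.11 for oligodendrocyte and -3.25 to -0.57 for microglia markers. RNA-Seq medians ranged from -1.18 to -0.79 for large ribosomal proteins, -0.97 to -0.83 for small ones, -0.49 to 0.50 for spiny neuron, 1.34 to 2.18 for cortical, 0.06 to 1.18 for oligodendrocyte and -1.78 to -0.017 for microglia markers. Lrrk2 ranged from -1.11 to 0.70 in footprinting and -2.71 to 0.69 in TE, above 0 only with that column, the choroid plexus and meningeal markers from -1.07 to 0.37 in TE, and Strbp from -1.11 to 3.18 in TE.

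No paired analysis was possible between the cohorts because they hold different mice and the deposited columns carry no replicate number, so the replicate number as a block was not run. Between the assays, Y-linked reads link the WT libraries. TE fitted within libraries linked so, with the non-TG libraries linked either way, an alternative chosen after seeing the data, had 0 calls higher and 0 lower. Y-linked reads give no such link for the non-TG libraries. Their sums were 720 and 643 in footprinting against 1121 and 107 in RNA-Seq, so the shallower RNA-Seq library matched neither footprinting library. With 2 libraries per group, or 1 where a library was left out and assumed to vary like the others, the depth of the WT libraries limits transcripts of low level. Non-TG libraries come from another table than the group means, and 3 samples are labelled where 2 libraries were recovered. Values of endothelial markers and collagens rest on too few members to describe their class.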

Other observations

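Of the other classes of genes, those with many members lay near the median transcript. The 142 zinc finger proteins had medians of 0.12 in footprinting and 0.16 in RNA-Seq, with 2 members lower by at least 1 in footprinting, where 0.926% of all transcripts were, namely Zfp931 at -1.70 and Zfp758 at -1.03. Zfp931 had 167 and 12.5 footprint reads in the WT libraries. The 40 splicing factors and hnRNPs had 0.08 and 0.17. For the 24 pores of voltage-gated channels the medians were -0.10 and 0.23, the former -0.66 without the WT deeper library and 0.26 without the WT shallower one, and Kcna5, for a potassium channel, was lowest at -1.19 and -1.77. The limma fit without the WT shallower footprinting library, with 1 WT library left, had a median of 0.24 over the 24 channels. Among them Kcnh7 was at 1.40, Kcnc2 at 1.03 and Kcna6 at 0.87. Zfp758 and these 3 channels were chosen after their values were seen. Clock genes, of which 15 of 17 were in the table, had -0.12 and -0.01, and heat shock chaperones, 12 of 13, had 0.00 and 0.09. Targets of the integrated stress response, 7 of 15, had -0.16 and -0.15. Atf4, the transcription factor at the centre of that response, had 1972 and 1536 RNA-Seq reads in non-TG and 1135 and 496 in WT, and a TE difference of 1.16. It was the 1 of 7 with TE higher by at least 1, where 1.34% of all transcripts were. The TE median of the list was 0.01, and leaving out single libraries gave -0.47 to 0.27. Interferon-responsive and MHC class I genes, 4 of 15, had -0.23 and 0.05. Globins, 3 of 7, had -0.76 and -0.46, with library medians in footprinting of 0.32 and -0.32 in non-TG and -0.24 and -2.25 in WT. The 2 collagens had -0.70 and 0.35. Leaving out single libraries gave RNA-Seq medians of -0.10 to 0.40 for zinc finger proteins, -0.41 to 0.16 for targets of the stress response, -0.34 to 0.45 for heat shock chaperones, -0.41 to 0.48 for interferon-responsive genes and -0.93 to 0.36 for globins, and footprinting medians of -1.16 to 0.22 and -2.10 to -0.06 for these last 2 lists. Footprinting medians ranged from -0.07 to 0.20 for zinc finger proteins, -0.47 to -0.04 for targets of the stress response and -0.07 to 0.15 for heat shock chaperones. Collagens ranged from -1.56 to -0.16 in footprinting and 0.02 to 1.07 in RNA-Seq.

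Several transcripts had reads in one library of a group and 0 in the other, and no differences are given for them. Gm5803 had 2381 unscaled footprint reads in the deeper non-TG library and 0 in the shallower one, and Gm4987 had 0 and 312, both chosen after their values were seen. Their symbols were kept in the counts of transcripts.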
